A study of Canis lupus familiaris with 4 samples.

Results

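This account follows 9 genes of the extracellular matrix and its turnover in canine mammary tumours of grade 3 and grade 1: the structural matrix genes COL1A1, COL1A2 and TNC, the proteases MMP3, MMP9, CTSS and CTSK, and the inhibitors TIMP1 and TIMP2. A probe was taken as a member when the array design gave it the dog RefSeq mRNA accession of one of these genes. This gave 22 probes on 30 spots for 9 genes, of 1045 named genes (1648 probes) on an array of 43603 probes. The 22 were read after the filter on dim probes, which asks for signal well above background on every array in one grade or the other. A probe of these genes that failed the filter would therefore not be among them. In all, 925 named genes passed it.

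The series set grade 3 tumours, described as the most malignant, against grade 1 tumours. Both grades were hybridised together on each of 4 two-colour arrays: grade 3 carried Cy5 and grade 1 Cy3 on 2 of them, and the dyes were exchanged on the other 2. The titles name tumours, while the protocols describe sorting of cancer cells after at least 72 h of growth with monocytes, and the labels do not settle which was hybridised. The labels give no treatment, genotype, breed or age for either grade. Arrays are called biological replicates, numbered out of 4 on 3 arrays and out of 3 on 1 array, with no statement of which share an RNA extract. The arrays share 1 slide. The p-values below therefore cover the spread among these arrays alone, and that spread may be technical.

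Type I collagen is a triple helix built from chains of COL1A1 and COL1A2 and is the main fibrous protein of connective tissue, made mostly by fibroblasts. Matrix metalloproteinases and cathepsins cut collagen and other matrix proteins, and tissue inhibitors of metalloproteinases bind the metalloproteinases and block them. In mammary tumours, stromal fibroblasts and infiltrating leukocytes are known sources of these proteins, along with the tumour cells.

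All 9 genes were lower in grade 3 than in grade 1 by their brightest probe (limma, adjusted p from 1.16e-09 to 0.0169), against 46.1% of the named genes measured in that way and 30.5% of all 35412 tested probes. None of the 9 was called higher, against 24.1% of the named genes and 31.1% of all tested probes, so that 61.7% of all tested probes were called in one direction or the other. MMP3 fell most, 5.51-fold, followed by COL1A1 at 2.24-fold and TIMP1 at 2.01-fold, and TIMP2 fell least, 1.14-fold. The median log2 fold change of the 9 genes was -0.92, beside -0.09 over all named genes and 0.0045 over all tested probes. Of the 22 probes, 21 were called lower and 1, a dim probe of MMP9, was not called. Another dim MMP9 probe, among the 21, passed the filter through grade 1 only. It was well above background on 3 arrays in grade 3 and on 4 in grade 1. Of the 22, 18 lay below 0 on all 4 arrays, as did 28.3% of all tested probes.

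Here and below, a log2 ratio is the normalised signal of grade 3 over that of grade 1 on one array, and a fold change is the limma estimate from all 4 arrays with its SE. The threshold was an adjusted p of 0.05 over all tested probes. Values of an array are given in the order replicate 1 and replicate 2 with grade 3 in Cy5, then replicate 1 and replicate 2 with grade 1 in Cy5. In RNA from mixed cells, fewer cells of a type and less RNA per cell cannot be told apart.

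**Figure D1:**
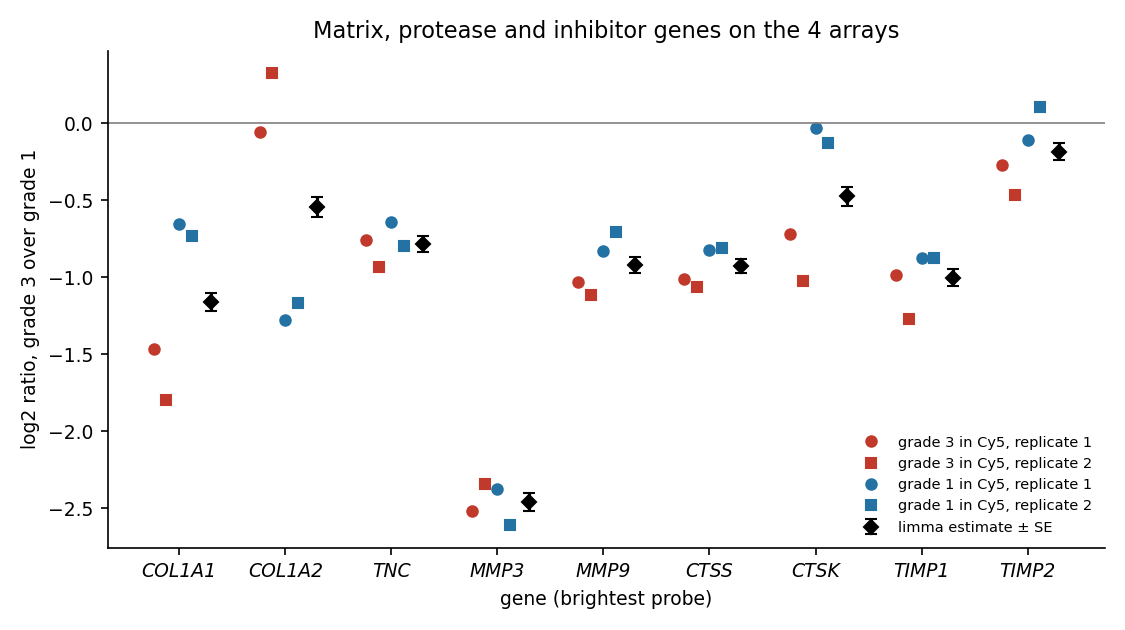
Log2 ratio of grade 3 over grade 1 (vertical axis) on each of the 4 arrays for the brightest probe of the 9 genes, marked by which grade carried Cy5. MMP3 lies between -2.61 and -2.34 on every array, and COL1A2 and TIMP2 reach above 0 on 1 array each.

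The values are relative to the other probes of an array, because each array was normalised on the assumption that most probes do not shift. When arrays were scaled to 10 spike-in control probes instead, the median of all tested probes moved from 0.0045 to 0.67 and 97.2% of the calls were higher in grade 3, where the loess scale gave 50.5%. On the spike-in scale MMP3, COL1A1, TIMP1, CTSS and MMP9 were still called lower and TIMP2 was called higher. TNC, at -0.12, COL1A2, at 0.12, and CTSK, at 0.19, were not called there. All directions that follow are those of the loess scale. The mean log2 ratio of the spike-in probes themselves lay between -0.78 and -0.45 on the 4 arrays. Signals were well above the local background: 80.6% to 84.5% of probes per array and channel passed that mark. The log2 ratios correlated at 0.913 or more between arrays of one dye orientation and at 0.693 or more between arrays of opposite orientation, across probes, which are not independent replicates.

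COL1A1 encodes the alpha-1 chain of type I collagen. Its brightest probe gave log2 ratios of -1.47, -1.80, -0.65 and -0.73. It was below 0 on every array, and the arrays with grade 3 in Cy5 were lower than the dye-swapped arrays without overlap. The fold change was -1.16 ± 0.06 (SE, n = 4 arrays; limma adjusted p = 1.96e-07). The dye term of the same fit was also called (-0.47 ± 0.06, limma adjusted p = 0.00312), and the orientations had means of -1.63 and -0.69. With median centring in place of loess the means were -0.87 and -0.996, and with processed signals they were -1.82 and -0.56, so the gap between orientations in this probe depended on the normalisation.

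The other 3 COL1A1 probes were lower as well, at -0.40, -0.80 and -0.49 (limma adjusted p = 0.000727, 1.65e-06 and 0.000822). The probe at -0.80 read -0.73, -0.98, -0.81 and -0.67, with no separation of the orientations. The probe at -0.40 read -0.32, -0.49, -0.59 and -0.17. The dimmest read -0.66, -0.65, -0.66 and -0.003, so that 1 array showed no difference there. The 4 probes of one transcript thus spanned 0.77 log2 units in fold change, and the mean over them was -0.71 in place of -1.16.

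COL1A2 encodes the alpha-2 chain. Its brightest probe read -0.06, 0.32, -1.28 and -1.17, and the second, present on 5 spots, read 0.03, 0.29, -1.44 and -1.42. In both probes the orientations gave opposite pictures, near or above 0 with grade 3 in Cy5 and far below 0 with grade 1 in Cy5. The 5 spots of the second probe had SDs of 0.018 to 0.066 within an array, so spots on one array were close together while the orientations lay 1.59 apart. The fold changes averaged over the orientations were -0.54 ± 0.06 (limma adjusted p = 5.53e-05) and -0.64 ± 0.06 (6.3e-06). Their dye terms were 0.68 ± 0.06 and 0.80 ± 0.06 (limma adjusted p = 0.000622 and 9.99e-05), and without a dye term in the fit neither probe was called (limma adjusted p = 0.149 and 0.145). Over all alternatives tried the adjusted p ran from 2.84e-08 to 0.235 for the first and from 6.71e-10 to 0.763 for the second.

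In scanner signals, before any normalisation, the brightest COL1A2 probe read higher in Cy5 than in Cy3 on every array, whichever grade carried Cy5. In Cy5, grade 3 read 281091 and 288737 units and grade 1 read 341420 and 340747. In Cy3, grade 1 read 96496 and 95330 units and grade 3 read 112163 and 122494. Between arrays, grade 1 was thus the brighter in Cy5 and grade 3 the brighter in Cy3. These signals are not scaled to the brightness of their channel. The median signal of a channel was higher in grade 3 in both dyes. It was 402 and 334.5 against 289 and 292 in Cy5, and 324 and 354.5 against 215 and 222.5 in Cy3. No spot carried a saturation mark.

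The other 4 COL1A2 probes, which were dimmer, lay below 0 on all 4 arrays. The brightest of these read -0.66, -0.98, -0.37 and -0.29, and the next -0.74, -0.80, -0.59 and -0.44. The last pair read -0.81, -0.80, -0.32 and -0.30, and -0.79, -0.83, -0.31 and -0.24. In each of the 4, the arrays with grade 3 in Cy5 were the lower ones, the reverse of the brightest pair. With median centring their means with grade 3 in Cy5 were instead the higher ones, between -0.30 and -0.12 against -0.63 to -0.34, while the brightest pair lay further apart, at 1.01 and 1.05 against -1.68 and -1.87. With processed signals the brightest pair had means of -0.20 and -0.05 against -0.96 and -1.24. Their fold changes were -0.57, -0.64, -0.56 and -0.55 (limma adjusted p from 2.86e-06 to 2.1e-05). All 6 COL1A2 probes therefore lay between -0.64 and -0.54 once the orientations were averaged, a span of 0.099.

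**Figure D2:**
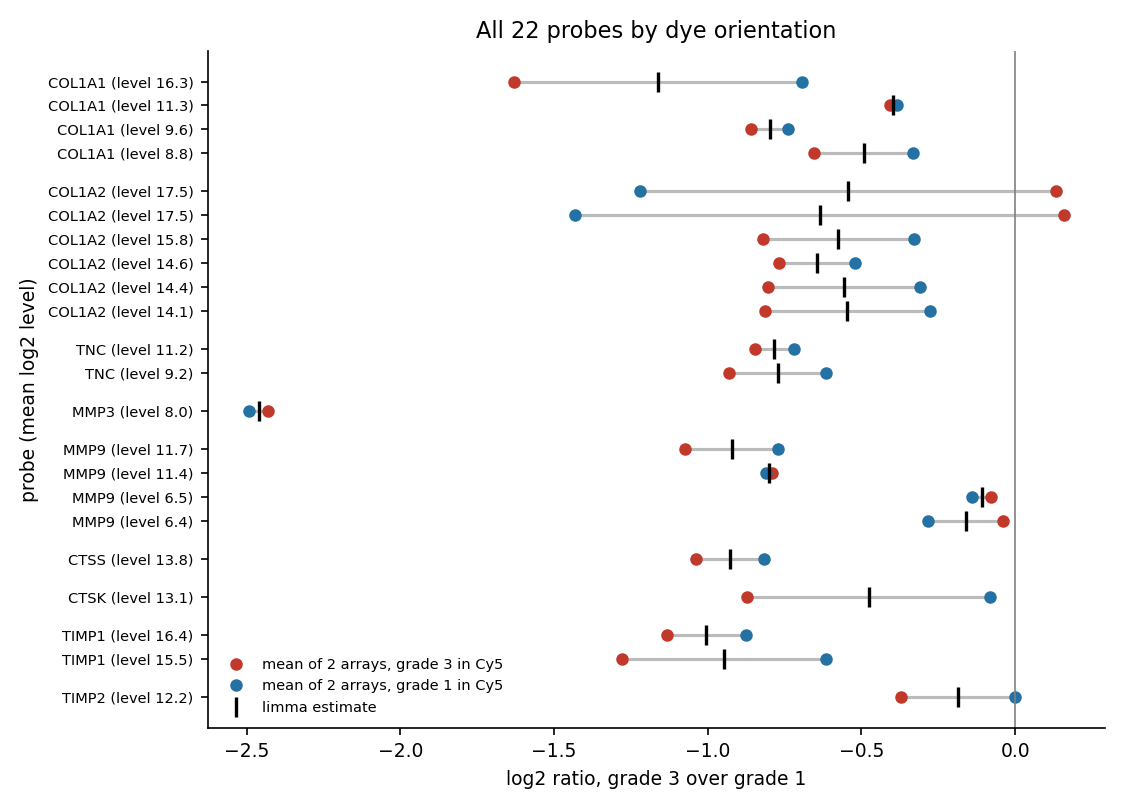
Mean log2 ratio of grade 3 over grade 1 (axis in log2 units) for each of the 22 probes, with 2 arrays per dye orientation. The brightest COL1A2 pair has the widest gaps, and its means with grade 3 in Cy5 are 0.13 and 0.16 against -1.22 and -1.43 with grade 1 in Cy5.

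The bright COL1A2 pair was compared with other probes of like brightness. There were 80 tested probes at least as bright as the dimmer of the pair. Of these, 70% had opposite signs in the orientations, and their median difference between orientations was 1.25. Over all tested probes 14.2% had opposite signs and the median difference was 0.167. Only 0.133% of all tested probes differed by as much as the pair. Among the 22 member probes, 10 (45.5%) had a called dye term, beside 19.9% of all tested probes.

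**Figure D3:**
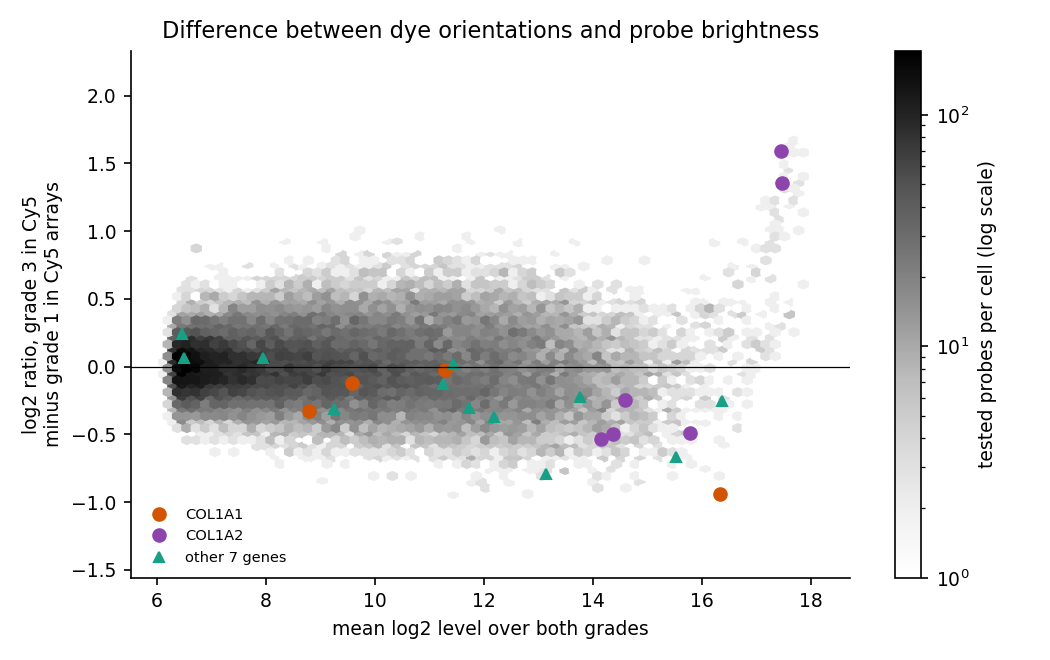
Difference between dye orientations in log2 ratio against the probe's mean log2 signal, for all tested probes and the 22 member probes. The brightest COL1A2 pair sits at the upper end of both axes, the second of the pair at 1.59.

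TNC encodes tenascin C, a large glycoprotein of remodelling matrix. Its brighter probe read -0.76, -0.94, -0.64 and -0.80. All 4 arrays were alike in sign and close in size, and the orientations overlapped. The fold change was -0.78 ± 0.05 (limma adjusted p = 1.19e-06), or 1.72-fold lower. The second TNC probe read -0.86, -0.998, -0.64 and -0.59 and gave a fold change of -0.77 (limma adjusted p = 7.41e-07).

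Fibroblast markers were read beside the collagens. Of 5 measured, 4 were lower and 1 was not called, with a median log2 fold change of -0.55. COL1A1 and COL1A2 are themselves on that list, so it is no independent view of them. The others were S100A4, a calcium-binding protein (-0.56), decorin, DCN (-0.34), both above 0 with spike-in scaling, and PDGFRB, the beta receptor of platelet-derived growth factor (0.08, limma adjusted p = 0.163). The summed signal of the list ranged from 351200 to 456000 units in grade 3 and from 550200 to 637900 in grade 1. All 5 markers were above background on every array in both grades. The part of fibroblast content in the collagen difference was not tested.

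MMP3, stromelysin 1, cuts proteoglycans, laminin and several collagens and can activate other metalloproteinases. It had 1 probe. The scanner signals in grade 3 were 110, 105.5, 102 and 106 units over local backgrounds of 41, 40.5, 32 and 31.5, and in grade 1 they were 419, 427.5, 532.5 and 581. Grade 3 was lower on every array, by a wide margin and in either dye. The log2 ratios were -2.52, -2.34, -2.37 and -2.61, giving -2.46 ± 0.06 (limma adjusted p = 1.16e-09), or 5.51-fold lower.

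The size and the call of MMP3 depended on the background correction. When local backgrounds marked as outliers by the scanner software were kept, the arrays read -2.51, -0.22, -0.87 and -2.41, and the fold change was -1.50 (limma adjusted p = 0.0711). Of all tested probes, 12.5% were called lower in that setting. With the software's own processed signals the fold change was -3.42 (limma adjusted p = 1.58e-05). The sign of MMP3 was negative in all 15 alternatives tried. The limma adjusted p ran from 5.51e-68, on the spike-in scale with its shared shifts, to 0.0711.

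MMP9, gelatinase B, cuts denatured collagen and type IV collagen and is stored in neutrophil granules. Its brightest probe read -1.03, -1.12, -0.83 and -0.71, and the second read -0.72, -0.86, -0.90 and -0.72. Both were below 0 on all 4 arrays. The fold changes were -0.92 ± 0.05 (limma adjusted p = 2.48e-07) and -0.80 ± 0.05 (1.01e-06), or 1.89-fold and 1.74-fold lower.

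The other pair of MMP9 probes lay close to background, with scanner signals between 56.5 and 88 units. One read -0.001, -0.15, -0.15 and -0.13, a fold change of -0.11 that was not called (limma adjusted p = 0.0829). The second read 0.004, -0.09, -0.38 and -0.18, a fold change of -0.16 (limma adjusted p = 0.0223). The size of both depended on the processing. With processed signals they read -0.40 (limma adjusted p = 0.0247, range over the alternatives 5.1e-08 to 0.717) and -0.92 (0.00179, range 8.03e-07 to 0.562). With median centring they read -0.28 and -0.34, both called lower, and with spike-in scaling they read 0.56 and 0.51, both called higher, which gave the lowest p of each. A mean over all 4 MMP9 probes gave -0.50.

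CTSS encodes cathepsin S, a lysosomal cysteine protease of antigen-presenting cells that also works outside the cell. It read -1.02, -1.06, -0.82 and -0.81. All arrays were below 0, and the fold change was -0.93 ± 0.05 (limma adjusted p = 1.56e-07), or 1.9-fold lower.

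CTSK encodes cathepsin K, the collagen-cutting cysteine protease best known from osteoclasts. It read -0.72, -1.02, -0.03 and -0.13 as the mean of 5 spots per array. The arrays with grade 1 in Cy5 were near 0 and the others far below, with no overlap. The spots of an array differed with SDs of only 0.025 to 0.048. The fold change was -0.48 ± 0.06 (limma adjusted p = 7.42e-05), and the dye term was -0.40 ± 0.06 (limma adjusted p = 0.00513). Without a dye term CTSK was not called (limma adjusted p = 0.0561, range over the alternatives 1.38e-07 to 0.0628). CTSS and CTSK are neighbouring genes, with 0 protein-coding genes between them in the reference annotation.

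Leukocyte markers were lower together with MMP9 and CTSS. All 4 measured neutrophil markers were called lower, against 46.1% of all named genes, but they differed in size. CAMP, an antimicrobial peptide of neutrophil granules, was 3.08-fold lower and S100A8, a subunit of calprotectin, 2.94-fold lower. CXCR2 was only 1.22-fold lower and ELANE 1.19-fold lower. The summed signal of all 4 was 14680 to 16750 units in grade 3 and 44680 to 48110 in grade 1. Of 7 macrophage markers, 5 were lower, 1 was higher and 1 was not called. The Fc receptor FCGR1A was 2.59-fold lower, the scavenger receptor CD163 2.21-fold lower and the chemokine CCL2 2.06-fold lower, while TLR2 was 1.28-fold higher and CD80 read -0.03.

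The macrophage list summed to 38950 to 44950 units in grade 3 and 71540 to 80920 in grade 1. All neutrophil and macrophage markers measured were above background on every array in both grades. The markers of other cells moved as well. All 6 T and NK cell markers (median -0.42) and all 3 B cell markers (median -1.02) were called lower. So were 3 of 4 mast cell, 4 of 5 endothelial and 3 of 4 adipocyte markers, against 46.1% of all named genes. The T and NK values ran from -1.41 for KLRD1 to -0.17 for CD4 and -0.14 for PRF1. Summed signals for T and NK cells were 1080 to 1127 units in grade 3 and 1565 to 1710 in grade 1. For B cells they were 3239 to 3991 and 5945 to 6266. Of 7 mammary epithelial markers 4 were higher, 1 was lower and 2 were not called (median 1.18). The milk protein gene CSN2 was 7.03-fold higher and PGR 1.49-fold lower, while ERBB2 (-0.03) and CLDN3 (0.11) were not called. The list summed to 368200 to 479900 units in grade 3 and 46820 to 103700 in grade 1. Of 7 muscle markers 6 were higher and 1 was lower (median 1.78), with the myosin gene MYH2 23.4-fold higher, and the list summed to 17660 to 18460 units and 6099 to 6459. The part of any of these cell types in the differences of the 9 genes was not tested. Of the bone list, CALCR, the calcitonin receptor of osteoclasts, was 1.54-fold lower, though not with spike-in scaling, where it read 0.04. ALPL, alkaline phosphatase, was 3.09-fold lower. The cartilage genes COL2A1 and ACAN were higher, while SOX9, on the same list, was 1.28-fold lower (limma adjusted p = 0.000101).

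TIMP1, a secreted inhibitor of most matrix metalloproteinases, read -0.99, -1.27, -0.88 and -0.88 by its brightest probe and -1.05, -1.51, -0.68 and -0.55 by its second. Both probes were below 0 on every array. The fold changes were -1.004 ± 0.06 (limma adjusted p = 3.46e-07) and -0.95 ± 0.07 (2.42e-06), or 2.01-fold and 1.93-fold lower. The second probe had a called dye term (-0.33 ± 0.07, limma adjusted p = 0.0151), with orientation means of -1.28 and -0.61. With median centring the brightest probe had means of -0.37 with grade 3 in Cy5 and -1.19 with grade 1 in Cy5.

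TIMP2, an inhibitor that also takes part in activating MMP2 at the cell surface, read -0.27, -0.47, -0.11 and 0.10. The arrays with grade 3 in Cy5 were below 0 and the dye-swapped arrays fell on either side of it. The fold change was -0.19 ± 0.06 (limma adjusted p = 0.0169). The call was lost without replicate 2 with grade 3 in Cy5 (0.0725), without replicate 1 with grade 1 in Cy5 (0.15), with marked backgrounds kept (0.128) and without a dye term (0.162). With median centring in place of loess TIMP2 read 0.06 (limma adjusted p = 0.384, range over the alternatives 2.65e-06 to 0.384, the lowest from the spike-in scale, where TIMP2 was higher).

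**Figure D4:**
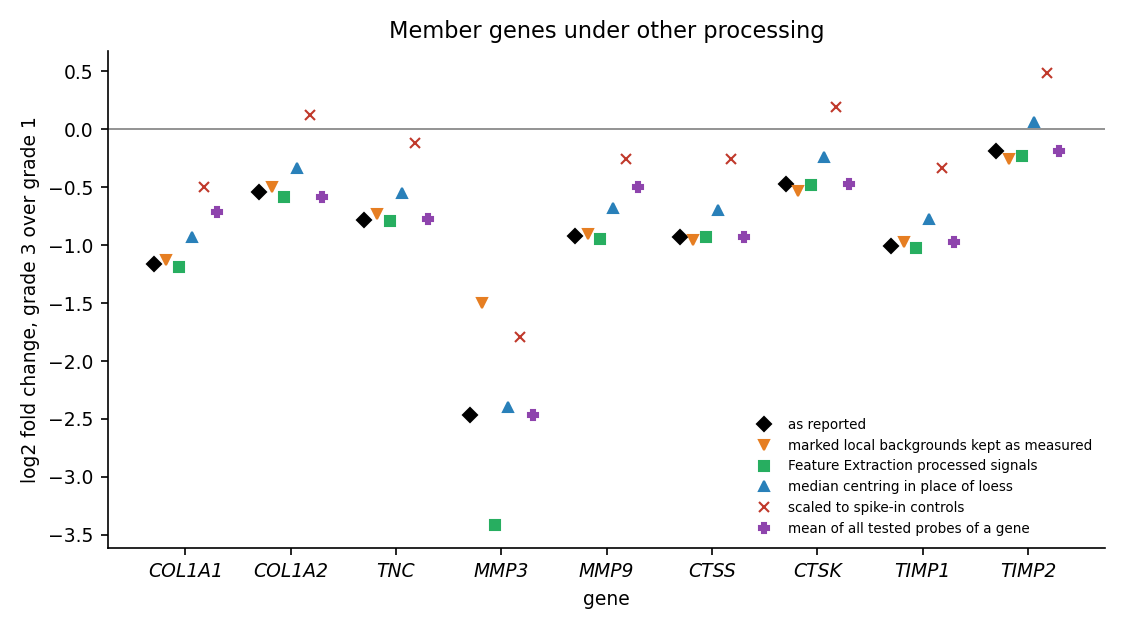
Log2 fold change of grade 3 over grade 1 for the 9 genes under each way of processing the arrays. MMP3 ranges most widely, -3.42 with processed signals and -1.50 with marked backgrounds kept, and TIMP2 crosses 0 with median centring and with spike-in scaling.

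From the lowest, the order of the fold changes was MMP3, COL1A1, TIMP1, CTSS, MMP9, TNC, COL1A2, CTSK and TIMP2. MMP3 was 1.30 below COL1A1, its neighbour in that order, and no error of that step was computed within arrays. Their per-array values, -2.61 to -2.34 and -1.80 to -0.65, did not overlap. With marked backgrounds kept, MMP3 read -0.22 and COL1A1 -1.63 on replicate 2 with grade 3 in Cy5. The steps among COL1A1, TIMP1, CTSS, MMP9 and TNC were 0.159, 0.076, 0.006 and 0.138, and the per-array values of each neighbouring pair overlapped. COL1A2 and CTSK were 0.069 apart and overlapped too. Among all tested probes, 0.0875% had a fold change as low as or below that of MMP3 and 24.9% as low as or below that of TIMP2.

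In all, 8 pairs of genes were compared within arrays, which removes what an array has in common. With 4 arrays the exact two-sided sign-flip permutation test cannot go below 0.125, so no pair could pass 0.05. TIMP1 was lower than TIMP2 on all 4 arrays, by -0.72, -0.80, -0.77 and -0.98 log2 units (mean -0.82 ± 0.11 SD, exact p = 0.125, adjusted over the 8 pairs 0.167). CTSS was lower than CTSK on all 4, by -0.30, -0.04, -0.79 and -0.68 (mean -0.45 ± 0.35 SD, exact p = 0.125). On replicate 2 with grade 3 in Cy5 that difference was 0.07 with marked backgrounds kept and 0 with median centring. COL1A1 was lower than COL1A2 on the arrays with grade 3 in Cy5, by -1.41 and -2.12, and higher on the others, by 0.62 and 0.43 (mean -0.62 ± 1.36 SD, exact p = 0.5). Which collagen chain was the lower by its brightest probe thus changed with the dye orientation.

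The protease and inhibitor pairs were compared in that way too. MMP3 was lower than MMP9 on each array (mean -1.54 ± 0.28 SD), than TIMP1 (-1.46 ± 0.28 SD) and than TIMP2 (-2.28 ± 0.35 SD), each with an exact p of 0.125. This did not hold on every array with marked backgrounds kept. In that setting, on replicate 2 with grade 3 in Cy5, MMP3 was 0.94 above MMP9, 0.88 above TIMP1 and 0.56 above TIMP2, and on replicate 1 with grade 1 in Cy5 it was 0.02 above TIMP1. MMP9 was lower than TIMP2 on all 4 arrays (-0.74 ± 0.07 SD, exact p = 0.125). MMP9 and TIMP1 differed by -0.04, 0.16, 0.04 and 0.17 (mean 0.08 ± 0.10 SD, exact p = 0.25, adjusted 0.286). With median centring in place of loess these differences were -0.45, -0.23, 0.46 and 0.61, so that their sign followed the dye orientation, and with processed signals they were 0.08, 0.24, -0.08 and 0.08.

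Other genes of matrix turnover did not move as one. Of 257 genes on 8 lists, 49 had a tested probe. Of these, 29 were lower, 14 higher and 6 not called, with a median log2 fold change of -0.27. Over all named genes, 46.1% were called lower and 24.1% higher, and no test set the lists against that split. Among metalloproteases ANPEP, aminopeptidase N, was 1.83-fold lower and ADAM9, a membrane-bound sheddase, read -0.11 and was not called. Of 11 genes on the list of cathepsins and serine proteases, 7 were lower, 3 were higher and 1 was not called (median -0.35). CTSC, cathepsin C, which activates granule proteases of leukocytes, was 2.59-fold lower (limma adjusted p = 1.66e-08), and the kallikrein KLK6 was 2.28-fold lower and KLK8 1.65-fold lower. The aspartic protease CTSD was 1.88-fold higher, tissue factor F3 1.9-fold higher and the kallikrein KLK5 1.65-fold higher. F3 is on that list but is not itself a protease.

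Of 7 other protease inhibitors, 3 were lower and 4 higher (median 0.19). SERPINA1, the inhibitor of neutrophil elastase, was 2.8-fold lower, and TFPI, the inhibitor of tissue factor, and SERPINF1 were each 1.76-fold lower. SPINK5, an inhibitor of kallikreins, was 2.62-fold higher (limma adjusted p = 2.28e-08) and the elastase inhibitor SLPI 1.27-fold higher. RECK, a membrane-anchored inhibitor of metalloproteinases, was 1.14-fold higher (limma adjusted p = 0.00917), a call lost with marked backgrounds kept and without replicate 1 with grade 1 in Cy5 (0.16). With spike-in scaling TFPI and SERPINF1 both read -0.15 and were not called. Inhibitors of serine proteases and of metalloproteinases each held lower and higher members.

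Among 6 other collagens, 5 were lower and 1 was higher (median -0.30). The lower ones were small in size, COL6A3 at -0.36, COL4A5 at -0.35 and COL7A1 at -0.29, and all 3 turned to above 0 with spike-in scaling. COL2A1, the collagen of cartilage, was 6.96-fold higher (limma adjusted p = 3e-10), while COL9A2 was lower, at -0.30 (limma adjusted p = 0.00351). Of 5 glycoproteins and proteoglycans, DCN (-0.34) and BGN (-0.33), the small proteoglycans decorin and biglycan, were lower, though above 0 with spike-in scaling. ACAN, the aggregating proteoglycan of cartilage, was 3.21-fold higher and OPTC, opticin, 5.65-fold higher. The collagen chaperone SERPINH1 was at -0.28, and above 0 with spike-in scaling, and the transglutaminase TGM1 at 0.29. CD44, the hyaluronan receptor, was at -0.28 and the integrin chain ITGB3 at -0.16, both called lower here and above 0 with spike-in scaling. ITGB3 lost its call without any one of 3 arrays, replicates 1 and 2 with grade 3 in Cy5 and replicate 2 with grade 1 in Cy5 (-0.17 to -0.08).

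Of 14 inducers of matrix and protease genes, 8 were lower, 3 were higher and 3 were not called (median -0.23). IL1B, a cytokine known to induce MMP3, was not well above background in grade 3 on any array and was at least 4.32-fold lower (limma adjusted p = 1.12e-09), a bound set by the dimmest signals above background. IL6 was 3.11-fold lower and IL1A 1.74-fold lower. The growth factor chains PDGFA and PDGFB were 1.73-fold and 1.36-fold higher and FGF7 1.32-fold higher. TNF read 0.12 and was not called (limma adjusted p = 0.0754). With marked backgrounds kept, IL1B (limma adjusted p = 0.0937, range over the alternatives 1.52e-48 to 0.0937), IL6, IL1A, PDGFA, PDGFB, FGF7, KLK8, KLK5, COL6A3, COL4A5, BGN, TGM1, CD44, ITGB3, TLR2 and CALCR were no longer called.

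**Figure D5:**
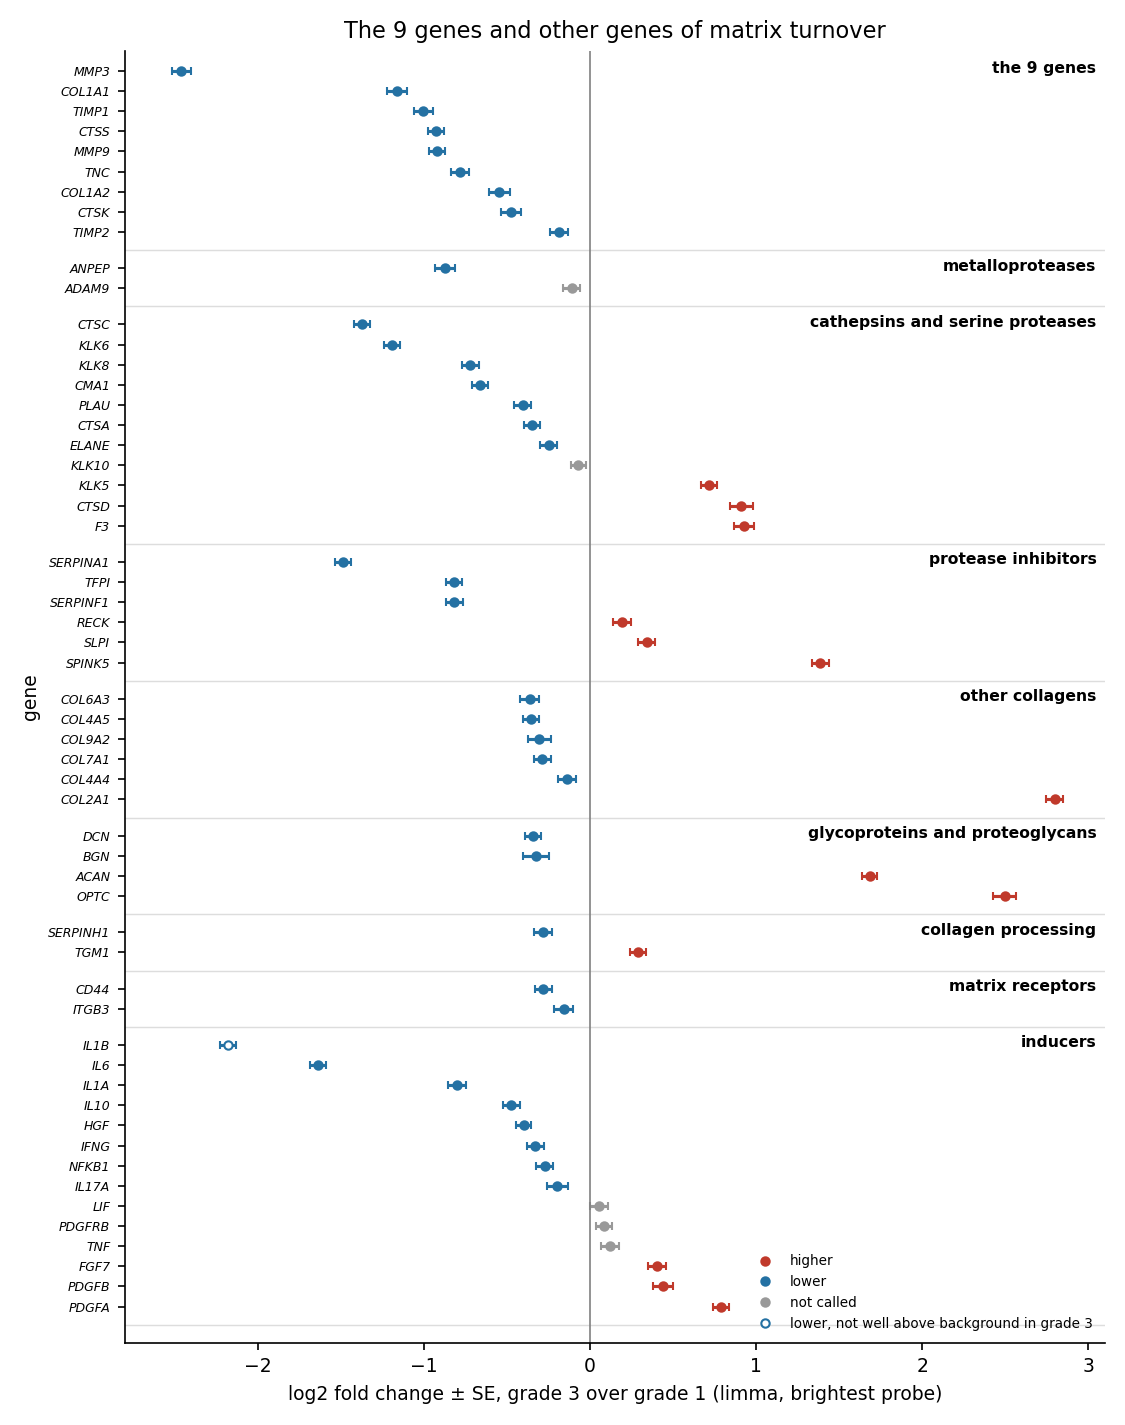
Log2 fold change ± SE (limma, n = 4 arrays) of grade 3 over grade 1 for the 9 genes and other genes tested, in 8 lists. All 9 genes lie left of 0, as do the metalloproteases and the matrix receptors, with 2 tested genes each. The other lists spread to both sides, from IL1B to COL2A1. IL1B is drawn open at its limma estimate, as it was not well above background in grade 3.

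For each of the 9 genes, the named genes with the nearest log2 ratios were found by the root mean square difference over the 4 arrays. TIMP1 was nearest to CASP12 (0.048) and CASP4 (0.055), which encode inflammatory caspases, and MMP9 to BIRC5, survivin (0.063), and CASP12 (0.082). CTSS was nearest to AVPR1A (0.056) and CEACAM23 (0.066), and TNC to KLK8 and HTR2B (0.069 each). TIMP2 was nearest to RAB8A (0.047) and ATOX1 (0.07), and CTSK to CHI3L1 (0.1) and APOC1 (0.123). COL1A1 was nearest to LGALS9 (0.242) and CD163 (0.298), MMP3 to ADGRE3 (0.279) and SLC15A1 (0.304), and COL1A2 to RHAG (0.281). The last 3 genes had no close match among the named genes, and the points share arrays and dye orientations.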

How the data were processed

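RNA of both grades had been hybridised to each of 4 two-colour arrays and, per the submitters' processing notes, scanned values came from Agilent Feature Extraction 10.7.3.1. The deposited median signals, local backgrounds and processed signals are intensity values on a linear scale, and the deposited LogRatio is the log10 of Cy5 over Cy3, per the file headers. The direction of each ratio came from the dyes in the labels.

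In R 4.3.3 with limma 3.58.1, signals were corrected with normexp (offset 50), which was run on median signals, and normalised by loess within arrays with control spots at weight 0. Local backgrounds that the software had marked as outliers (151 to 2352 per array and channel, up to 309565 units) were set to the median background of the same channel and array. Between 11 and 39 spots per array marked as outliers were left out, and spots of a probe were averaged. Median Cy5 signals were 289 to 402 units on backgrounds of 39 to 41, and median Cy3 signals 215 to 354.5 units on 28 to 32. The number of arrays limits the precision. A probe was tested if every array showed it well above background in the same grade, which left 35412 of 43603. The model held grade and a dye effect of each probe (2 residual degrees of freedom and 7.5 prior). Two-sided p-values were adjusted by Benjamini and Hochberg's method across every tested probe. The test was checked on simulated data.

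Probes were named by RefSeq accession through a table of the assembly UU_Cfam_GSD_1.0, which names 3.78% of the probes, and no coordinates were used. The brightest tested probe stood for its gene. Every member probe is named, together with the 3 highest and 3 lowest called genes of each list that had one sign on all 4 arrays, and genes behind counts of 5 or fewer. Of a member, the 2 nearest named genes are given. A few genes within this rule are not reported here; they remain in the counts and medians. PDGFRB, S100A4, CALCR and the other markers come from the marker lists. The members and lists were chosen with earlier results of these data known. Alternatives tried were kept backgrounds, processed signals, the deposited value table, median centring, spike-in scaling, no dye term, other filters, the mean over probes, and leaving out each array. Arrays with the same replicate number did not deviate together, and the numbers were not taken to pair them. The deviations of the replicate 1 arrays from their orientation means correlated at r = -0.0909 over 35377 probes. With 2 arrays per orientation, the replicate 2 arrays carry no separate value.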

Additional observations from a re-analysis of the deposited data

Results flagged for a closer look

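Among the 22 member probes and 8 gene pairs, 30 series of 4 arrays, 2 had 1 array standing apart from the other 3 by Dixon's criterion, which chance meets in about 1 series in 20. The dimmest COL1A1 probe read -0.003 on replicate 2 with grade 1 in Cy5, while the other arrays read -0.66, -0.65 and -0.66. Its gap to the nearest array was 0.976 of the whole range. One of the MMP9 probes close to background read -0.001 on replicate 1 with grade 3 in Cy5, while the others read -0.15, -0.15 and -0.13, a gap of 0.835 of the range. Without that array this MMP9 probe was called lower (-0.15, limma adjusted p = 0.0327, range over the alternatives 5.1e-08 to 0.717). It was also called lower with processed signals (-0.40) and with median centring (-0.28), and called higher with spike-in scaling (0.56), which gave the lowest p.

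The dye orientations gave different results for COL1A2. In the probe present on 5 spots, the log2 ratio differed by 1.59 between orientations, above 0 on both arrays with grade 3 in Cy5 and below 0 on both with grade 1 in Cy5, and the dye term of the limma fit tested this difference (adjusted p = 9.99e-05).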

How the results depend on the processing

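With marked backgrounds kept, 2328 probes were higher and 4418 lower, against 11030 and 10802, and 7 of the 9 genes were called lower. In that setting MMP3 lay -0.60 from MMP9, -0.53 from TIMP1 and -1.24 from TIMP2, and MMP9 lay -0.65 from TIMP2. With processed signals MMP3 lay -2.47 from MMP9, -2.39 from TIMP1 and -3.19 from TIMP2. With the mean over all probes of a gene, MMP3 lay -1.96 from MMP9, and MMP9 lay 0.48 from TIMP1 and -0.31 from TIMP2. With spike-in scaling 32260 probes were higher and 917 lower, and 5 genes were lower and 1 higher. Values that turned above 0 there were 0.12 for COL1A2, 0.48 for TIMP2, 0.19 for CTSK, 0.27 and 0.17 for the COL1A1 probes at -0.40 and -0.49, 0.031, 0.093, 0.024, 0.11 and 0.122 for the other COL1A2 probes, 0.56 and 0.51 for the dim MMP9 probes, 0.30 for COL6A3, 0.31 for COL4A5, 0.38 for COL7A1, 0.32 for DCN, 0.34 for BGN, 0.39 for CD44, 0.56 for ADAM9, 0.39 for SERPINH1, 0.51 for ITGB3, 0.107 for S100A4, 0.044 for CALCR and 0.64 for CD80. In that scaling TNC (-0.12), KLK8 (-0.05), TFPI and SERPINF1 (-0.15 each) and IL1A (-0.13) stayed below 0 but lost their calls. Median centring took the calls of COL7A1, DCN, BGN, CD44 and SERPINH1, turned TIMP2 to 0.06, ADAM9 to 0.13 and CD80 to 0.17 and made 63.9% of the calls higher. Without a dye term 6 genes were lower. The causes of these changes were not tested.

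Leaving out 1 array gave 9094 to 10971 probes higher, 9005 to 10798 lower, and 8 to 9 genes lower with 0 higher. CD80 ran from -0.066 to 0. The 9 fold changes kept their sign, from -1.25 to -1.08 for COL1A1, -0.64 to -0.45 for COL1A2, -0.83 to -0.74 for TNC, -2.52 to -2.40 for MMP3, -0.95 to -0.89 for MMP9, -1.08 to -0.93 for TIMP1, -0.24 to -0.13 for TIMP2, -0.94 to -0.92 for CTSS and -0.55 to -0.40 for CTSK. The difference of COL1A1 from COL1A2 ran from -1.03 to -0.12, that of TIMP1 from TIMP2 from -0.85 to -0.76, of CTSS from CTSK from -0.59 to -0.34, of MMP3 from MMP9 from -1.65 to -1.42, of MMP3 from TIMP1 from -1.59 to -1.37, of MMP9 from TIMP1 from 0.05 to 0.12, of MMP3 from TIMP2 from -2.41 to -2.13 and of MMP9 from TIMP2 from -0.77 to -0.71. With the replicate number as a block, 10922 probes were higher and 10640 lower, and all 9 genes were still lower. Grade 3 MMP3 and the dim MMP9 probes lay near background, which limits the precision of their ratios.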
